A study of Mus musculus with 26 samples.

Results

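The SR proteins, their Tra2 relatives and the heterogeneous nuclear ribonucleoproteins (hnRNPs) were followed in leukemia-specific CD8+ T cells. The members were the protein-coding genes whose mouse symbol begins with Srsf and a digit, with Hnrnp or with Tra2, leaving out Hnrnpll. The rule gave 32 of the 21822 protein-coding genes with a matched transcript, namely 11 SR protein genes, 2 Tra2 genes and 19 hnRNP genes. It used names alone and no measured value, and it left out 3 pseudogenes. Tg101 T cells carry a transgenic T cell receptor for an antigen of the C1498 leukemia, a mouse line grown in C57BL/6 hosts, and were transferred before the leukemia was given by vein. RNA-seq had been run on sorted cells in 15 libraries, and the labels of all of them gave strain C57BL/6, age 6 weeks and genotype wild type. There were 3 control libraries of Tg101 spleen cells without leukemia (controls 1 and 2 at day 0, control 3 at day 18), 1 library of undivided (CTVhi) cells from the spleen of leukemia-bearing mice at day 18, and cells of leukemia-bearing mice from spleen at day 7 (spleen early, 2) and day 14 (spleen mid, 1) and from liver at day 7 (liver early, 2), days 13 to 14 (liver mid, 3) and days 16 to 18 (liver late, 2). The last library was an oligo-dT preparation of control cells. All cells share 1 receptor clone on a single background, and the labels do not say whether libraries of a group came from separate mice, so p-values measure the spread between these libraries. Leukemia and organ changed together between controls and liver cells and cannot be told apart.

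SR proteins bind exonic enhancers through RNA recognition motifs and recruit the spliceosome through arginine-serine domains, and the Tra2 proteins act in the same way. The hnRNPs coat nascent transcripts, often silence exons, and take part in RNA export, stability and translation. Many of these genes limit their own output: the protein favours an alternative exon or a retained intron in its own transcript, which brings in an early stop codon and sends the RNA to nonsense-mediated decay or holds it in the nucleus. Activated T cells change the splicing of many transcripts, and hnRNP L and its paralog are known for their part in CD45 splicing.

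The exons that carry such early stops are annotated in these genes. Of the 32 members, 20 have a transcript annotated to nonsense-mediated decay (a decay transcript below), 23 have a retained intron transcript and 7 have neither. In 8 members a decay transcript has its stop codon in an exon outside the gene's annotated coding exons. The 5 sequences here show what sets a decay transcript apart from the coding transcripts of its gene. The ratio of decay to coding transcripts was tested below and called in no member. Each runs 5′ to 3′ on the gene's strand from the first base of that exon to its stop codon, which is in capitals, from GENCODE M21 transcripts on mm10.
Srsf7, chr17:80205054-80205081, reverse strand: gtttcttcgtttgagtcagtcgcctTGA
Srsf3, chr17:29039454-29039487, forward strand: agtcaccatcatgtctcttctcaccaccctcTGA
Hnrnpl, chr7:28817335-28817393, forward strand: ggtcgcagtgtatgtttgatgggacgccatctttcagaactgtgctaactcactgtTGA
Tra2b, chr16:22259181-22259261, reverse strand: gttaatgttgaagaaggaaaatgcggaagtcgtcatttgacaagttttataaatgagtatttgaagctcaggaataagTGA
Tra2a, chr6:49252965-49253108, reverse strand: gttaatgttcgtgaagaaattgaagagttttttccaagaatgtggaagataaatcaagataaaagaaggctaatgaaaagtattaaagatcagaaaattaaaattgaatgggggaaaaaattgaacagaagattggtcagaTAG

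The stop came after 28 bases of the exon in Srsf7, 34 in Srsf3, 59 in Hnrnpl, 81 in Tra2b and 144 in Tra2a, each count with the stop codon included. The whole exons span 460, 456, 70, 276 and 306 bases in that order.

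The low-input libraries held 22679819 to 70706990 estimated counts. The 9 T cell identity genes, among them Cd3e, Cd8a and Lck, summed to 4170 to 9660 CPM (counts scaled to library size) in all 14 low-input libraries and none was at 0; 1 of them, Cd3e, rose in liver mid and late cells against control. All 12 cell cycle genes rose there, and they summed to 355 to 440.1 CPM in controls and 1723 to 4271 CPM in liver mid and late cells. All 6 antigen experience genes, such as Pdcd1 and Gzmb, rose too, from sums of 20.95 to 40.7 CPM in controls to 1246 to 4213 CPM. The 5 erythroid genes fell, and they reached 5223 CPM in control 1 and 20350 CPM in control 2 against 5.59 to 214.9 CPM in liver mid and late cells, a range that held control 3 at 136 CPM. Likewise 7 of 9 tested myeloid genes fell, the list reaching 1108 CPM in control 1, 171 CPM in control 2 and 21.1 CPM in control 3 against 12.3 to 56.0 CPM. Of the B cell genes Ighm made up nearly all of 354 to 815.4 CPM, while Pax5 was at 0 in 7 libraries; 2 of 5 tested B cell genes fell. Of 7 tested hepatocyte genes 5 rose, and Alb, the main hepatocyte product, was at 0.913 to 132 CPM in liver mid and late cells and at or below 0.0325 CPM in controls. Apoc1 and Trf did not pass, and Trf reached 319 CPM in a control. The summed hepatocyte list overlapped, at 1.23 to 324.9 CPM in controls and 4.02 to 403.9 CPM in liver mid and late cells. The part of these other cells in the results below was not tested. For gene levels in liver mid and late cells, counts of called members without each control are given. In such bulk samples, fewer cells of a type and less RNA per cell cannot be told apart. The 2 liver early libraries were unlike, with cell cycle sums of 1642 CPM in replicate 1 and 351.4 CPM in replicate 2.

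Control 1, liver mid replicate 1 and liver late replicate 1 belong to a library series named TG in the sample titles, and all other low-input libraries to a series named XC. The study sequenced in 2 batches, and series was taken as batch and fitted as a term.

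In liver mid and late cells as 1 contrast, 12 members were higher than in controls and 3 were lower, by edgeR's quasi-likelihood test at an adjusted p under 0.05. The 15 called members were 46.9% of the 32, against 47.3% of all 14600 genes tested. By direction, 23.5% of all genes rose and 23.8% fell. The median log2 fold change was 0.44 over members and -0.05 over all genes, and 24 of the 32 members had a positive value. Comparing libraries directly, 13 members had all 5 liver mid and late libraries above all 3 controls and 2 had them below, against 19.6% and 18.1% of genes. In liver mid cells alone 9 members rose and 1 fell (31.3% of genes called), and in liver late cells alone 7 rose and 2 fell (37.5% of genes called), with values between -1.79 and 1.21 in liver late cells. The call count depended on single libraries. The share of all genes called is not given for the fits that follow, so their counts do not compare members with other genes. Without control replicate 1, the only TG control, no member passed. The count was 8 without control replicate 2, 7 without control replicate 3, 9 without liver mid replicate 1, 8 without liver mid replicate 3 and 7 without liver late replicate 1. In liver late cells alone no member passed without control replicate 1 or either liver late library, 5 passed without control replicate 2 or 3, and 18 and 15 passed without liver early replicates 1 and 2. In liver mid cells alone no member passed without control replicate 1 or 2 or liver mid replicate 1 or 3, and 4 passed without control replicate 3.

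**Figure D1:**
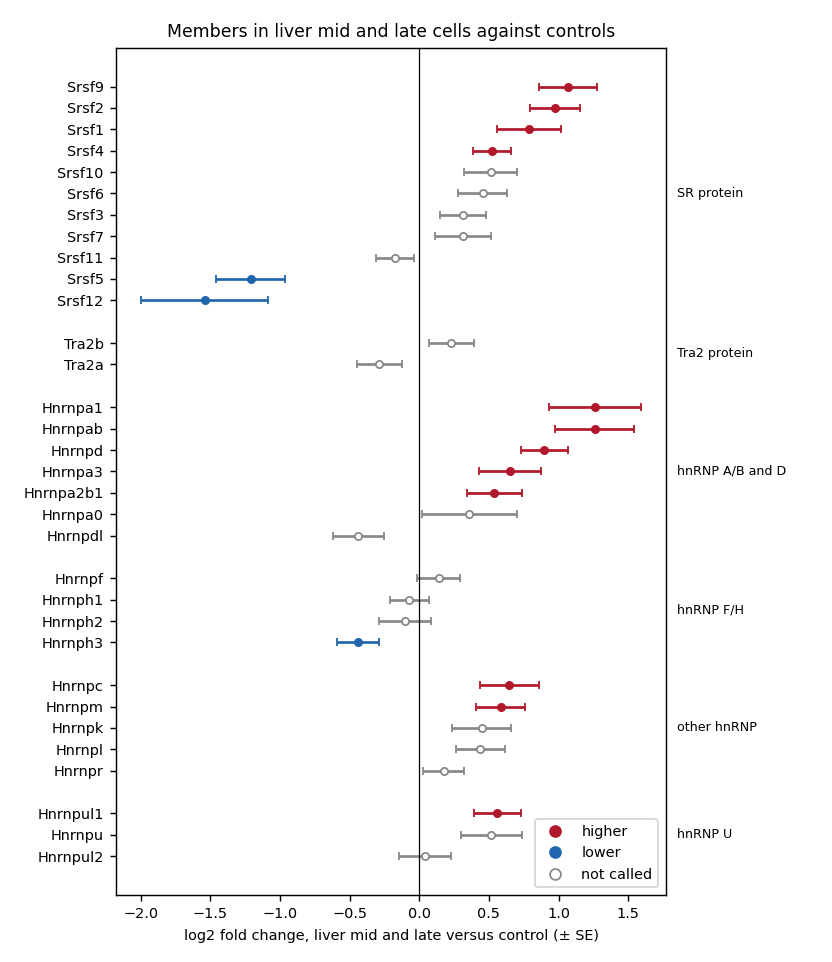
Log2 fold change with its standard error for all 32 members, liver mid and late against control, grouped by protein family. Filled points passed an adjusted p under 0.05. The 5 called hnRNP A/B and D genes lie between 0.54 and 1.26, and Srsf5 and Srsf12 lie below -1.

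Among the 11 SR protein genes, Srsf9, Srsf2, Srsf1 and Srsf4 rose and Srsf5 and Srsf12 fell. Srsf9 encodes a short SR protein with 2 RNA recognition motifs. Its level, as CPM scaled by TMM factors, was 77.1, 73.2 and 72.9 in controls 1 to 3, 217.8, 114 and 128 in liver mid replicates 1 to 3, and 236 and 143 in liver late replicates 1 and 2. The liver mid and late values did not overlap the controls, and the TG libraries were the highest. The log2 fold change was 1.07 ± 0.21 (SE) with an adjusted p of 0.00724.

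Srsf2, an SR protein that stays in the nucleus and also acts in transcription elongation, measured 314, 425 and 458 CPM in controls, 740.5, 757 and 998 CPM in liver mid and 727 and 718 CPM in liver late libraries. All 5 liver libraries were above the highest control. The log2 fold change was 0.97 ± 0.18 (SE) with an adjusted p of 0.00686. Srsf1, the classic SR factor that shuttles to the cytoplasm, rose by 0.79 ± 0.23 and Srsf4 by 0.52 ± 0.14 on the log2 scale, with adjusted p of 0.0229 and 0.0162.

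Srsf5 encodes a shuttling SR protein whose levels are known to respond to growth signals. It measured 725, 1143 and 752 CPM in controls, 249, 633 and 513 CPM in liver mid and 179 and 511 CPM in liver late libraries. Every liver mid and late library was below every control, and the TG liver libraries were the lowest. The log2 fold change was -1.21 ± 0.25 (SE) with an adjusted p of 0.00773. By deposited TPM, a measure per transcript length, Srsf5 was the second most abundant member in controls (603 ± 159, SD, n = 3).

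Srsf12 was near the lower limit of detection, at 1.57, 3.22 and 2.89 CPM in controls, 0.295, 1.96 and 1.94 CPM in liver mid and 0.196 and 1.56 CPM in liver late libraries. The groups overlapped across series but not within either. The log2 fold change was -1.54 ± 0.46 (SE, adjusted p = 0.0238), and -0.85 (adjusted p = 0.178) without control replicate 1. Within series the difference of mean log2 CPM was -2.47 in TG and -0.74 in XC libraries. The other SR genes did not pass, with Srsf10 at 0.51 (adjusted p = 0.0512), Srsf6 at 0.45, Srsf3 at 0.32, Srsf7 at 0.31 and Srsf11 at -0.17 on the log2 scale. Neither Tra2 gene passed when all transcripts were summed, Tra2b at 0.23 ± 0.16 and Tra2a at -0.29 ± 0.16.

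**Figure D2:**
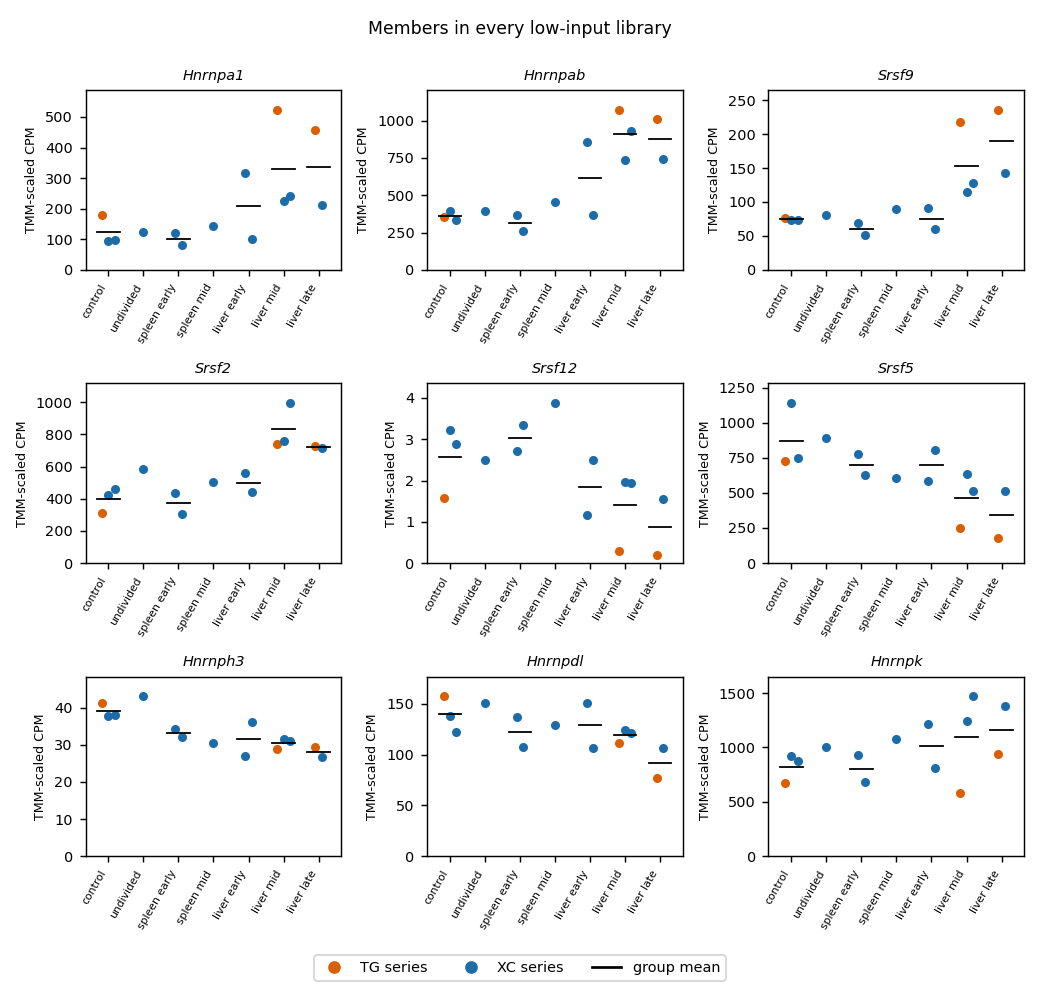
TMM-scaled CPM (linear axes from 0) in every low-input library for the 4 members with the largest rises, the 4 with the largest falls and Hnrnpk. Points are libraries coloured by series and lines are group means. Hnrnpab in liver mid and late libraries lies between 733 and 1073 CPM, above all controls.

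In the hnRNP A/B and D family 5 of 7 genes were called higher and none lower, against 23.5% of all genes higher. The count of higher genes was 3 of 7 in liver mid or liver late cells alone and 4 of 7 with protein-coding transcripts alone. Hnrnpa1, which antagonises SR proteins at many exons, measured 181, 96.0 and 98.9 CPM in controls, 524, 227 and 241 CPM in liver mid and 457 and 214 CPM in liver late libraries. The TG libraries were higher than the XC libraries in each of these groups, and no liver mid or late library fell within the controls' range. The log2 fold change was 1.26 ± 0.33 (SE) with an adjusted p of 0.0154.

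Hnrnpab, which encodes a binder of AU-rich and single-stranded nucleic acids, measured 353, 391 and 333 CPM in controls. It measured 1073, 733 and 930.2 CPM in liver mid and 1013 and 743 CPM in liver late libraries. The lowest liver mid or late library was well above the highest control. The log2 fold change was 1.26 ± 0.28 (SE) with an adjusted p of 0.00964. Hnrnpd, known as AUF1 for its part in AU-rich mRNA decay, rose by 0.90 ± 0.17, Hnrnpa3 by 0.65 ± 0.22 and Hnrnpa2b1 by 0.54 ± 0.20 on the log2 scale.

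Hnrnpdl, a close relative of Hnrnpd, had a log2 fold change of -0.44 ± 0.18 that missed the threshold (adjusted p = 0.0744). Its values were 158, 138 and 123 CPM in controls, 112, 125 and 121 CPM in liver mid and 76.6 and 106 CPM in liver late libraries. Control 3 lay within the liver range. Hnrnpa0, a gene with a single transcript, was at 0.36 ± 0.34 and did not pass.

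Of the hnRNP F/H genes, which bind G-rich runs, Hnrnph3 fell and the others did not pass. Hnrnph3 measured 41.3, 37.8 and 38.0 CPM in controls, 28.9, 31.5 and 31.1 CPM in liver mid and 29.5 and 26.6 CPM in liver late libraries. The groups did not overlap, though the difference was small, at -0.44 ± 0.15 (SE) on the log2 scale with an adjusted p of 0.0397. Hnrnpf, Hnrnph1 and Hnrnph2 lay between -0.10 and 0.14.

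Hnrnpk, a KH-domain protein that binds C-rich RNA, was the most abundant member by deposited TPM in controls (814 ± 250, SD, n = 3). Its scaled counts were 669, 920.2 and 875.5 CPM in controls, 577, 1242 and 1475 CPM in liver mid and 936 and 1381 CPM in liver late libraries. Liver mid replicate 1 was below all controls and the other liver mid and late libraries were above them. The log2 fold change of 0.45 ± 0.21 did not pass (adjusted p = 0.11). Hnrnpc, which guards against the use of cryptic exons, rose by 0.65 ± 0.21, and Hnrnpm by 0.58 ± 0.18. Hnrnpl at 0.44 ± 0.18 (adjusted p = 0.0653) and Hnrnpr at 0.17 ± 0.15 did not pass. In the hnRNP U group, whose founding member binds scaffold DNA, Hnrnpul1 rose by 0.56 ± 0.17, while Hnrnpu at 0.52 ± 0.22 and Hnrnpul2 at 0.04 ± 0.19 did not pass.

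Within series, 24 members were higher in liver mid and late cells in both TG and XC libraries and 6 were lower in both, against 41.1% and 43% of genes. Every liver mid and late library was above every control of its own series for 16 members and below for 4, against 28.6% and 27% of genes. The 4 below were Srsf5, Srsf12, Srsf11 and Hnrnph3. For Srsf5 the difference of mean log2 CPM was -1.78 in TG and -0.76 in XC libraries, and for Srsf9 it was 1.56 and 0.81. For Hnrnpa1 the differences were 1.44 and 1.22. With the XC libraries alone, edgeR called no gene of 13295 and so no member, with 7 of 32 members and 34.1% of genes at an unadjusted p under 0.05.

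Some members share sequence with other genes, which limits how reads could be assigned. Of the 31-base words of a gene's transcripts, over 25% also occurred in another gene's transcripts for 5 members, with 66.2% for Hnrnpf, 41.0% for Srsf4, 29.9% for Hnrnpa1, 28.1% for Hnrnpab and 28.1% for Hnrnpa3. The gene sharing most was a Gm locus for 4 of them and Phykpl for Hnrnpab. A share of words is not a share of reads, and how far the counts of these members are uncertain was not measured. Srsf6, Srsf9 and Hnrnpa0 shared none.

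Isoform balance was examined next. The naming rule for members did not use it, though the members were chosen with earlier results of these data known. Retained intron transcripts fell relative to protein-coding transcripts in most members tested. Retained intron models also take reads of unspliced RNA, and the counts cannot tell these sources apart. The counts of each gene's retained intron transcripts were set against those of its protein-coding transcripts, in the 22 members with at least 10 counts of both in at least 6 libraries. The log2 ratio fell in 15 of the 22 members and rose in none by limma at an adjusted p under 0.05. Over all 5728 genes tested it fell in 42.7% and rose in 0.96%, and 11.5% of genes had a positive value. The median was -1.60 over members and -1.002 over genes. In 13 of the 22 members the retained intron percentage of all 5 liver mid and late libraries was below all 3 controls, against 32.4% of genes. For the following fits, each without a library, the share of all genes called is not given. Without control replicate 1 no member passed, and 7 passed without liver late replicate 1 and 10 without control replicate 3.

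Summed over members, retained intron transcripts took 13.1%, 13.4% and 13.3% of member counts in controls 1 to 3, 5.24%, 8.13% and 6.03% in liver mid libraries and 4.37% and 6.25% in liver late libraries. Every liver mid and late library was below every control. Over all genes the same share was 9.12% to 9.58% in controls and 5.43% to 7.97% in liver mid and late libraries. Protein-coding transcripts took 67.2% to 68.2% of member counts in controls and 74.2% to 81.3% in those liver libraries. The share on decay transcripts overlapped, at 13.95% to 15.35% and 11.6% to 14.96%.

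**Figure D3:**
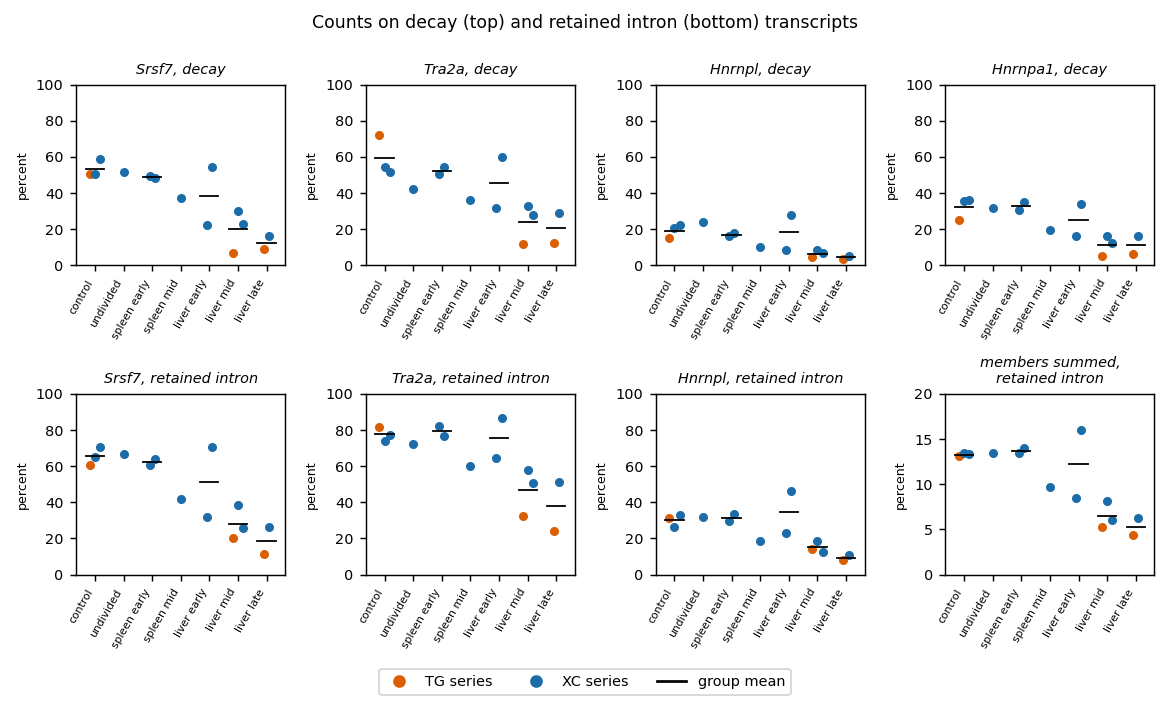
Percent of counts on decay transcripts (top) or retained intron transcripts (bottom) out of that class plus protein-coding transcripts, per library, for Srsf7, Tra2a and Hnrnpl. The last column shows Hnrnpa1 decay transcripts and the retained intron share of all member counts, on an axis to 20%. Liver mid and late libraries lie below all controls in each panel.

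Srsf7, an SR protein with a zinc knuckle, showed the largest change of decay ratio. Its retained intron percentage was 60.7, 65.35 and 70.55 in controls, 20.5, 38.2 and 25.9 in liver mid and 11.5 and 26.1 in liver late libraries. The log2 ratio fell by 2.67 ± 0.54 (SE) with an adjusted p of 0.0141. Its decay percentage, from the transcript with the TGA exon shown above, was 50.5, 50.7 and 58.6 in controls, 6.93, 30.3 and 22.65 in liver mid and 8.89 and 16.3 in liver late libraries. Every liver mid and late library was below every control, with a log2 ratio of -2.64 ± 0.60 that did not pass the adjustment (adjusted p = 0.118).

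Tra2a had a retained intron percentage of 81.6, 74.2 and 77.1 in controls, 32.3, 58.0 and 50.7 in liver mid and 24.2 and 51.4 in liver late libraries, and its log2 ratio fell by 2.23 ± 0.54 (SE, adjusted p = 0.0187). Its decay percentage was 72.1, 54.6 and 51.9 in controls, 11.7, 32.6 and 27.9 in liver mid and 12.1 and 29.1 in liver late libraries. The groups did not overlap in either class, and the decay ratio of -2.45 ± 0.68 did not pass (adjusted p = 0.135).

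Hnrnpl showed 31.2%, 26.4% and 32.9% retained intron counts in controls, 14.2%, 18.7% and 12.7% in liver mid and 7.91% and 10.7% in liver late libraries. The log2 ratio fell by 1.67 ± 0.40 (SE, adjusted p = 0.0178). Its decay percentage was 14.95, 20.5 and 22.05 in controls and 3.69 to 8.25 in liver mid and late libraries, with a log2 ratio of -2.03 ± 0.48 (adjusted p = 0.118). The liver mid and late libraries were again below all controls in both classes. Hnrnpa1 has decay transcripts but no retained intron transcript, and the decay class took 25.3%, 35.5% and 35.9% of counts in controls and 4.98% to 16.3% in liver mid and late libraries.

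For the decay ratio as a whole, limma called none of the 19 members tested, against 0.199% of 2509 genes, and 12 of the members and 20.3% of genes had an unadjusted p under 0.05. The median log2 ratio was -0.88 over members and -0.38 over genes. In 8 of the 19 members the decay percentage of all 5 liver libraries was below all 3 controls, against 9.69% of genes. The 8 were Srsf2, Srsf3, Srsf4, Srsf7, Srsf11, Tra2a, Hnrnpa1 and Hnrnpl. Srsf6 was at 49.8% to 62.5% in controls and 61.1% to 66.7% in liver mid and late libraries. The split of counts between overlapping isoforms is an estimate. For Srsf3, the decay class held 97.9% to 98.4% of decay plus coding counts in controls, and 92.3% to 97.8% in liver mid and late libraries.

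Summing only protein-coding transcripts, an alternative chosen after the data were seen, changed which members were called. With these counts 16 members rose and 3 fell, against 22.7% and 23.6% of 12546 genes. Tra2a turned from -0.29 for all transcripts to 1.10 ± 0.31 (SE, adjusted p = 0.022). Srsf7 went from 0.31 to 1.59 ± 0.38 (adjusted p = 0.0133), and Srsf3 from 0.32 to 1.68 ± 0.52 (adjusted p = 0.0298). The Srsf3 value rests on a small estimated coding class. In controls, retained intron transcripts held 96.7% to 98.8% of its retained intron plus coding counts. Tra2b, Hnrnpl and Hnrnpu also passed, at 0.56, 0.80 and 0.73. Hnrnpa3 at 0.56 and Hnrnpc at 0.53 no longer did. Srsf5 and Srsf12 were still called lower, at -1.004 and -1.65, Hnrnph3 at -0.15 no longer passed, and Hnrnpdl fell by 0.50.

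**Figure D4:**
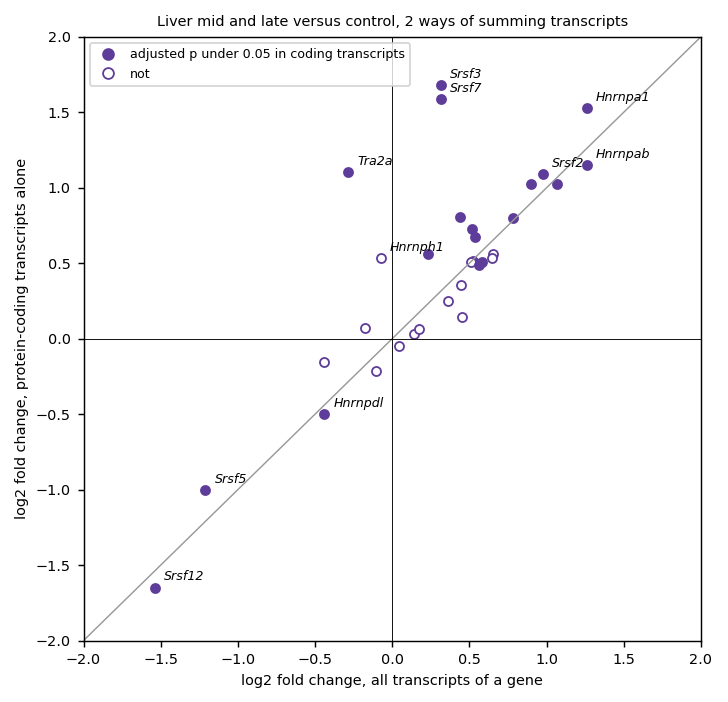
Log2 fold change of each member in liver mid and late cells against control, with all transcripts summed (x axis) and with protein-coding transcripts alone (y axis). The grey line marks equal values and filled points passed the test on coding transcripts. Tra2a, Srsf7 and Srsf3 lie far above the line, at 1.10, 1.59 and 1.68 on the y axis.

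Across the other time points and organs no member passed in edgeR. In liver early against control the share of genes called was 0%, with 3 members and 10.2% of genes at an unadjusted p under 0.05, so the members were near the background. These were Hnrnpa0 at -1.76 ± 0.45, Hnrnpa1 at 1.15 ± 0.40 and Hnrnpab at 0.84 ± 0.34. DESeq2 called Hnrnpa0 there and no other member, against 2.4% of genes. Hnrnpa0 was at 13.1 and 12.8 CPM in the liver early libraries, 22.1, 38.9 and 56.8 CPM in controls and 25.6 to 73.3 CPM in liver mid and late libraries. Both liver early libraries were below every other low-input library for this gene.

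The liver early libraries differed from each other in most members. Of the 12 members called higher in liver mid and late cells, 9 were above all 3 controls in liver early replicate 1 (75.2% of the genes called higher) and 2 in replicate 2 (21.6%). Of the 3 called lower, 3 were below all controls in replicate 1 (64.7% of the genes called lower) and 1 in replicate 2 (19.9%). These members had been called against the same 3 controls, so the counts are not separate support. Hnrnpab was at 858 CPM in replicate 1 and 367 CPM in replicate 2, and Hnrnpa1 at 317 and 102 CPM. The retained intron percentage was below all controls for 17 of 22 members in replicate 1 (38.8% of genes) and for 3 in replicate 2 (14% of genes). Srsf7 had 31.6% in replicate 1 and 70.5% in replicate 2. Without replicate 2, a fit in which the lone liver early library is assumed to vary like the other groups and 13.2% of genes passed, Hnrnpa1 at 1.74, Hnrnpab at 1.32 and Srsf1 at 1.01 were called higher and Hnrnpul2 at -0.88 lower in liver early cells.

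Between liver late and liver mid cells no member passed (0% of genes called), with member values between -0.50 and 0.30. No member was at an unadjusted p under 0.05, beside 5.34% of genes. DESeq2 called no member, beside 34 of 14600 genes. In undivided cells no member passed against controls (0% of genes), in a comparison that assumes the lone library varies like the other groups. Member values lay between -0.74 and 0.51. Of the 12 risers, which had been called against these same controls, 7 were above all controls there (31.3% of genes called higher). They ran from Hnrnpab at 397 CPM beside 391 CPM in the highest control to Srsf2 at 587 CPM beside 458 CPM and Hnrnpd at 198 CPM beside 149.5 CPM. Of the 3 members called lower, 0 were below all controls (25.9% of genes called lower). The retained intron percentage was below all controls for 5 of 22 members (23.4% of genes). The retained intron share of member counts was 13.5%, and the Srsf7 percentage was 66.9.

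In spleen cells at day 7 no member passed (0% of genes), and the retained intron share was 13.5% and 14.0%. No member was at an unadjusted p under 0.05, beside 6.28% of genes, and DESeq2 called none, beside 11 of 15449 genes. The single spleen mid library gave no member against controls (0.00647% of genes called) and no member against liver mid cells (0.00647%), in edgeR or DESeq2. At an unadjusted p under 0.05 the first had no member and the second had Srsf2, at 0.80 ± 0.31, beside 5.15% and 5.81% of genes. The 1 gene called in both was Gm14681. In spleen mid, 9 of the 12 risers were above all controls (64.6% of genes called higher). Of the 3 members called lower, 2 were below them (46.7% of genes called lower). Both sets had been called against these same controls. Hnrnpab measured 455 CPM, Srsf9 90.2 CPM and Srsf5 603 CPM. The retained intron percentage was below all controls for 14 of 22 members (43.1% of genes), with Srsf7 at 41.95%, and the share of member counts was 9.69%.

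The members sit in a pathway whose other genes were counted from lists chosen with earlier results known, in liver mid and late cells against control. Of 26 Sm, LSm and snRNP-specific proteins, the core of the spliceosomal particles, 20 rose and Snrnp48 fell, with Snrpd1 at 1.76 ± 0.46, Snrpd2 at 1.59 ± 0.36 and Snrpa at 1.58 ± 0.29 the largest. The rise of the summed list was larger in the TG series, from 2185 CPM in control 1 to 5460 and 5503 CPM in liver mid and late libraries. In XC libraries it was at 1676 and 1590 CPM in controls and 2446 to 2641 CPM in liver mid and late cells. Of 16 U2AF and SF3 factors, which define the branch site and 3′ splice site, 9 rose and none fell, led by Phf5a at 1.21 ± 0.31. Of 24 Prp and tri-snRNP factors 6 rose and 4 fell, with Prpf39 at -1.47 ± 0.22 the largest. These compare with 23.5% of genes higher and 23.8% lower.

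Of 10 genes for kinases and the importer of SR proteins, 5 kinase genes fell and none of the list rose. The importer Tnpo3, at -0.11 ± 0.13, and 4 other kinases did not pass. SR protein kinases and CLK kinases phosphorylate the arginine-serine domain, which governs where SR proteins reside. Srpk3 was at -1.82 ± 0.53, Clk1 at -1.55 ± 0.26 and Clk4 at -1.15 ± 0.24, and the summed list was at 1326 to 1448 CPM in controls and 772 to 1119 CPM in liver mid and late libraries, without overlap. Of 14 exon junction and nonsense-mediated decay factors, 3 rose and 6 fell, with Magoh at 1.18 ± 0.25, Smg1 at -1.04 ± 0.22 and Upf3b at -0.85 ± 0.20. Of 35 tested other splicing regulators 8 rose and 6 fell, the largest called changes being Mbnl3 at 1.59 ± 0.31, Raly at 1.35 ± 0.38 and Ptbp2 at -1.10 ± 0.25. Over all genes 23.5% were higher and 23.8% lower. The other splicing regulators did not exceed either share.

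**Figure D5:**
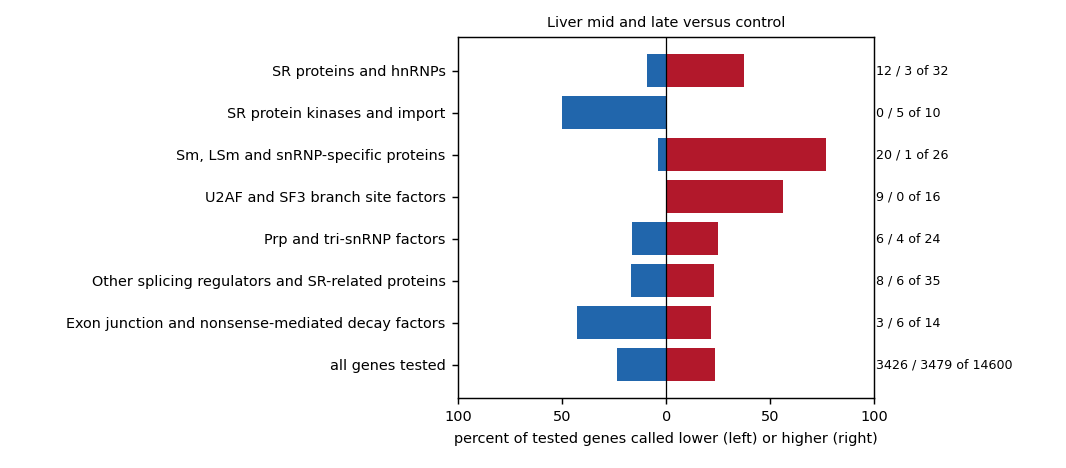
Percent of tested genes called lower (blue, left) or higher (red, right) in liver mid and late cells against control, for the members, 6 lists of other splicing genes and all genes. Numbers at the right give genes higher and lower of those tested, from 20 and 1 of 26 for the Sm and LSm list to 0 and 5 of 10 for the kinases.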

How the data were processed

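RNA of sorted T cells was measured in 15 libraries (26 runs). The authors quantified reads with kallisto (mm10 and GRCm38 are named in the submitters' processing notes, versions not given) and deposited estimated counts and TPM per transcript; kallisto's strand setting is not given in the sources used here. Of 118783 transcripts, 116622 (98.18%) matched GENCODE M21 and carried at least 98.95% of counts per run. Estimated counts were summed per gene and over the runs of a library, and rounded. The groups came from the labels. Genes reaching 10 counts in 6 or more libraries were fitted with edgeR 4.0.16 (R 4.3.3, TMM, quasi-likelihood test, group plus series), with 11 libraries for undivided and liver cells and 14 for spleen, and p-values were adjusted over all genes by Benjamini-Hochberg. Log2 CPM used a prior count of 2. Isoform ratios were log2 of (class counts + 0.5) over (coding counts + 0.5), tested with limma 3.58.1. DESeq2 1.42.0 was an alternative, with RLE scaling, other filters, controls, runs and libraries. The scripts were tested on simulated data with 200 changed genes, for liver mid and late against control. At a simulated log2 change of 1, 25 of 192 changed genes in the fit were recovered, and at 2, 135 of 185. For the retained intron ratio, 0 of 200 were recovered at -1 and 79 of 200 at -2. Unchanged genes called numbered 1 and 11 for gene levels, and 0 and 1 for the ratio. The data differed from this setting, with 47.3% of genes called and 42.7% of retained intron ratios called lower. Recovery after adjustment depends on that share, so these figures do not give the power of the tests above.

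Members named with values in every library were the 4 largest rises and falls, the most abundant member by TPM and the 4 largest changes of decay ratio; up to 3 called genes were named per list, and others were named after their values were seen. The members and lists were chosen with earlier results of these data known. The oligo-dT library entered no test. Protein sequences and promoters were not used here.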

Additional observations from a re-analysis of the deposited data

Results flagged for a closer look

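In 7 cases across 5 members, every library of 1 group lay above all 3 controls and every library of another lay below them. At least 1 such pattern held for 6.23% of 14600 genes, over the same 6 pairs of groups, each of 1 to 3 libraries. The values are differences of mean log2 CPM between the 2 groups. At day 7, liver was above and spleen below the controls for Hnrnpc, by 0.51, and for Srsf11, by 0.34. At days 13 to 14, liver was above and the single spleen library below for Srsf7, by 0.46, and edgeR did not call that difference. Liver early was above and liver late below the controls for Srsf11, by 0.24. In the spleen, the day 14 library was above and both day 7 libraries were below for Hnrnpc, by 0.37, for Srsf9, by 0.59, and for Tra2b, by 0.38. Apart from Srsf7, these differences were not tested. Groups of 2 or 3 libraries were too small for a test of single outlying libraries.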

How the results depend on the processing

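No paired analysis was possible because the labels number libraries and not mice. Where no share of all genes is printed, the counts below do not compare members with other genes. The 15 members called in liver mid and late cells became 4 with no series term, 7 with day 0 controls only and 0 in the XC libraries alone, and ranged from 0 to 20 when libraries were left out in turn. The 9 called in liver late cells became 2, 5 and 0 under the same 3 settings, and ranged from 0 to 18. The 10 called in liver mid cells became 2, 4 and 0, with 17 from control, mid and late libraries alone and 6 from counts scaled from TPM, and ranged from 0 to 15. In liver early cells 1 member was called by DESeq2, 2 with no filter, and 0 to 4 with libraries left out. The 15 falls of the retained intron ratio became 8 with no series term and 0 in the XC libraries alone (14 of 22 members and 38.2% of genes at an unadjusted p under 0.05), and ranged from 0 to 16. The fits on XC libraries alone and on protein-coding transcripts alone were chosen after seeing the data. The cause of these losses was not tested; fewer libraries entered the fits that leave some out. Under the other alternatives run, member counts stayed within 1.5 times, and the counts of 0 for late against mid, undivided, spleen and decay ratio comparisons stayed at 0. Of the 12 members named by rule, only Tra2a changed sign over the 22 alternatives, to 1.103 with protein-coding transcripts. Hnrnph3 lost its call in 13 of 22 alternatives and Srsf12 in 7. Low counts limit Srsf12, which was at or below 3.89 CPM in every library.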

Other observations

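In the oligo-dT library of control cells the members took 1.22% of counts, beside 0.817% to 0.949% in the low-input controls, and retained intron transcripts took 14.5% of member counts. Its percentages for single members differed from control 1 in both directions: Srsf2 retained intron transcripts made up 38.4% against 8.23%, and Srsf7 decay transcripts 29.3% against 50.5%. The library has no replicate, and no test was made.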
